A study of Mus musculus with 6 samples.

Results

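The epithelial kallikreins Klk4, Klk5, Klk6, Klk7, Klk8, Klk9, Klk10, Klk12, Klk13 and Klk14 are secreted serine proteases. They were taken by gene symbol from a table of 15643 genes, and all 10 were in it. Their transcripts were counted in mTEChi, the mature medullary epithelium of the thymus, which displays tissue proteins to T cells in development. Thymi came from NOD mice, a strain prone to autoimmune diabetes, at 4.5 weeks of age, and the cells were sorted. Libraries 745, 750 and 753 are labelled Aire+/+ and libraries 746, 748 and 749 Aire-/-, where Aire encodes a transcriptional regulator of these cells. MARS-seq tags each captured transcript near its 3′ end with a unique molecular identifier (UMI), and UMIs are counted. The deleted part of Aire and whether each library came from its own animal are not in the labels, so standard errors and p-values cover only how far these libraries differ, which may be technical. The genes were chosen with their values in this same comparison in view, so their differences between the genotypes are given as a description, without a p-value.

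Kallikreins are made as inactive precursors and are switched on by cleavage, often by each other. In the outer epidermis Klk5, Klk7, Klk8 and Klk14 form a cascade that cuts the desmosomal proteins holding dead cells together. The cells are then shed, and the inhibitor encoded by Spink5 restrains Klk5, Klk7 and Klk14. Klk4 acts in teeth, where it clears the protein matrix from maturing enamel. Thymic medullary epithelium holds cells that take on features of skin keratinocytes, and it also makes many tissue proteins under the control of Aire.

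All 10 genes were lower on average in the libraries labelled Aire-/-, but by very different amounts. Klk4, Klk6, Klk7 and Klk8 kept part of their level, with fitted differences from 2.36-fold for Klk8 to 3.39-fold for Klk6. Klk5, Klk9, Klk10, Klk13 and Klk14 were lower by 9.86-fold (Klk9) or more in the fit, and Klk12 had no UMI in any Aire-/- library. The median log2 fold change of the 10 genes was -3.47 (Aire-/- over Aire+/+), with Klk12 at its fitted value or at its bound, against -0.02 over the 11956 genes that passed the count filter. All 10 genes passed that filter. Klk9, Klk10, Klk12 and Klk14 had no Aire-/- library at its level and passed through Aire+/+ alone, so a call for them could only be lower. By edgeR's quasi-likelihood test at an adjusted p of 0.05, all 10 were called lower, where 12.1% of tested genes were called lower. For 8 of the 10 every Aire+/+ library lay above every Aire-/- library, a pattern found in the same direction for 20.2% of tested genes. A fitted fold over 8 in that direction was found for 6 of the 10 and for 4.66% of tested genes. Because these genes were chosen on this comparison, nothing is read from these counts. The authors' deposited table selects 8 of the 10 as higher in Aire+/+, with Klk6 and Klk7 left out, where 7.14% of its genes were selected in that direction.

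Values that touch all comparisons are given here once. UMI totals ran from 2736932 to 2887321 for Aire+/+ and from 1014581 to 1960802 for Aire-/-, with 746 the smallest. Levels are given as CPM, the counts-per-million unit, scaled between libraries by TMM. For a gene with no UMI the limit is 3 UMIs, equal to 0.984 to 1.01 CPM in Aire+/+ and 1.61 to 3.08 CPM in Aire-/-, for counting error only. Transcripts of Aire itself were higher in the libraries labelled Aire-/-, at 4827 ± 333 against 2250 ± 192 CPM (SD, n = 3 each), and a 3′ tag outside the deleted part checks nothing, so every direction here rests on the labels. Gapdh, a glycolytic enzyme of every cell, had 28 UMIs in 746 and 90 in 753 against 2245 to 4166 in the other 4 libraries. The split of calls over all genes depended on the scaling: 1450 lower and 1027 higher genes (58.5% of calls lower) became 2048 and 567 (78.3%) when libraries were scaled by their totals alone.

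The 10 genes lie head to tail on the plus strand of mouse chromosome 7, from Klk14 at position 43690418 to the end of Klk4 at position 43885804 (mm10), a span of 195 kb. In chromosomal order they are Klk14, Klk13, Klk12, Klk10, Klk9, Klk8, Klk7, Klk6, Klk5 and Klk4, with Klk11 between Klk12 and Klk10. Klk8 (43797577 to 43803826), Klk7 (43811294 to 43816359) and Klk6 (43824499 to 43832030) follow each other directly, and these were 3 of the 4 genes with the smallest differences. Klk9 ends 0.8 kb before Klk8 starts and was 9.86-fold lower in the fit, against 2.36-fold for Klk8. The annotated non-coding transcript 2310002F09Rik runs on the opposite strand from 43695209 to 43797958, across Klk13, Klk12, Klk10 and Klk9, over the 3′ end of Klk14 and over the 5′ end of Klk8. The strand setting of the counting is not given in the sources used here, so whether reads of the 2 strands were told apart is not known. With tags near 3′ ends, those of 2310002F09Rik would lie near 43695209, in the 3′ end of Klk14. The 3′ ends of the other genes it overlaps lie elsewhere. No kallikrein of the set shares its last 300 nt with another gene at 90% identity over 80 nt or more, so the counts were not open to division between near-identical copies by this measure.

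**Figure D1:**
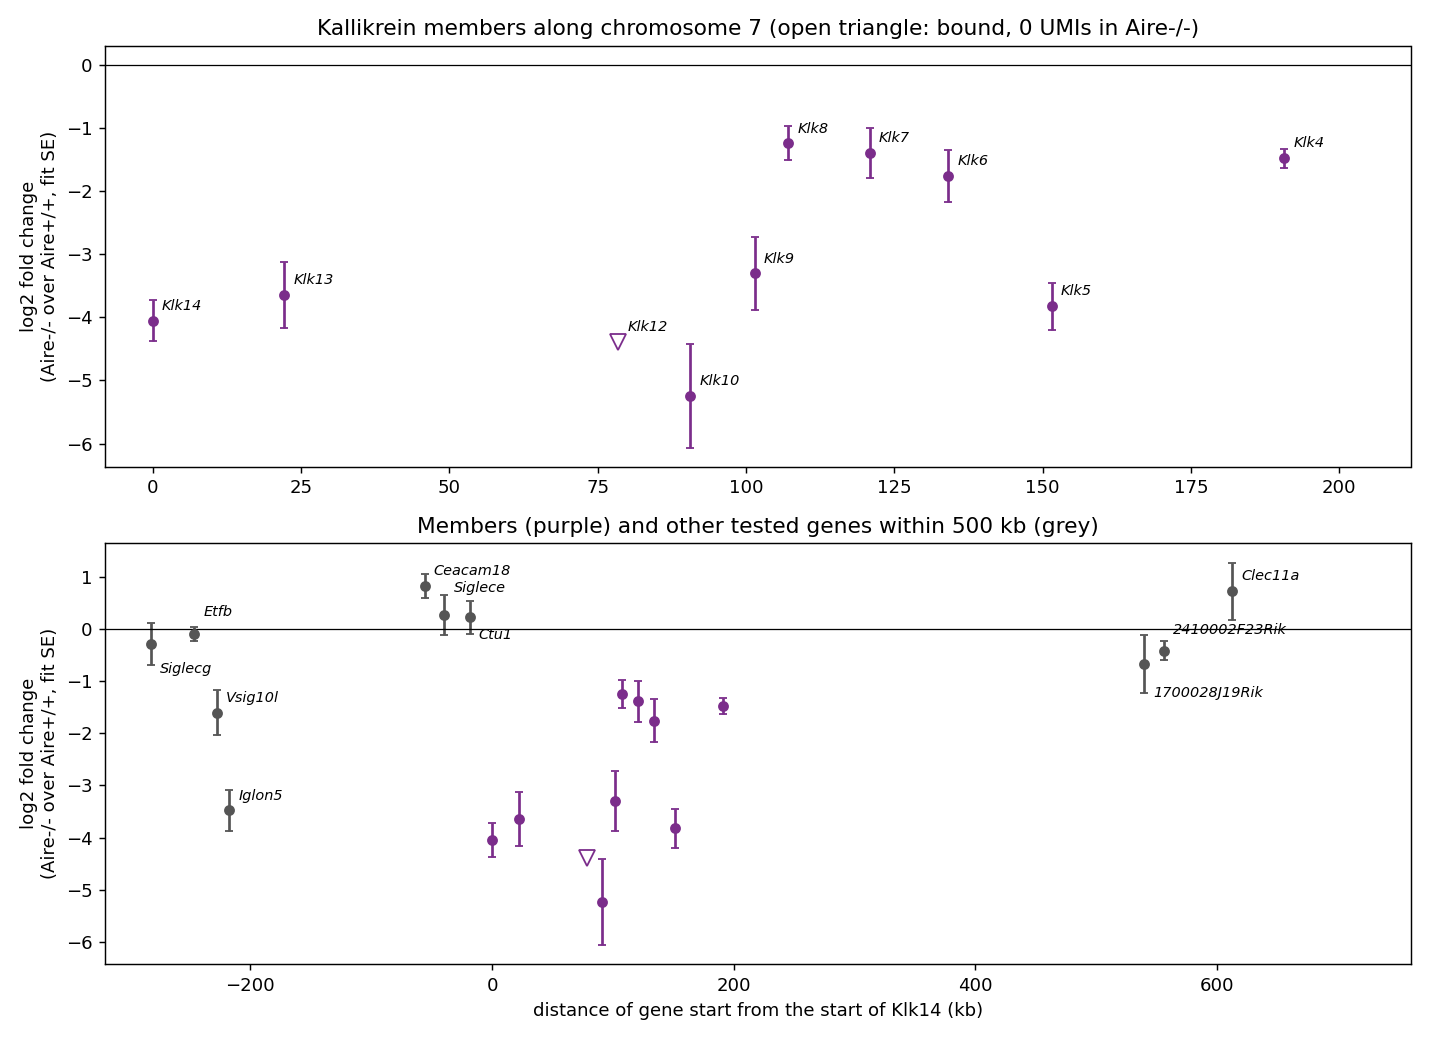
Fitted log2 fold change (Aire-/- over Aire+/+, bars are the standard error of the fit) against the distance of each gene's start from the start of Klk14 in kb, for the 10 kallikreins (top) and with the 10 tested genes within 500 kb that are not kallikreins (bottom). The neighbours Klk8, Klk7 and Klk6 lie between -1.24 and -1.76, and the open triangle places Klk12, with 0 UMIs in Aire-/-, at its bound of -4.38.

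The sequences before the starts of Klk8, Klk7 and Klk6 are shown because these adjacent genes kept part of their level. That of Klk14 is shown because it lay at an end of the row and was 16.6-fold lower in the fit. Each is the 250 bases before the transcript start, 5′ to 3′, from RefSeq (build GRCm38.p6, the assembly that mm10 names). Capitals mark the GC box, GGGCGG on either strand, the letters that Sp-family factors are known to bind.
Klk8, chr7:43797327-43797576, plus strand: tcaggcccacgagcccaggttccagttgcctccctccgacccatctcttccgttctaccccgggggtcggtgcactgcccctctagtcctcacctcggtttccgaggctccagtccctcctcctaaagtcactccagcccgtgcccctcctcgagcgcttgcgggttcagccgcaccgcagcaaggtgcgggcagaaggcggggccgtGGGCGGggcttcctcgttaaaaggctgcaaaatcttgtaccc
Klk7, chr7:43811044-43811293, plus strand: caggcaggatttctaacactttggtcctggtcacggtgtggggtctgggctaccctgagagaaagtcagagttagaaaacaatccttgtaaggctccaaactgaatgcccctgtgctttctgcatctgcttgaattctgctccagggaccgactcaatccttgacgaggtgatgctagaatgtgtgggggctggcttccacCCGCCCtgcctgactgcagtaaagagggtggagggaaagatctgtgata
Klk6, chr7:43824294-43824543, plus strand: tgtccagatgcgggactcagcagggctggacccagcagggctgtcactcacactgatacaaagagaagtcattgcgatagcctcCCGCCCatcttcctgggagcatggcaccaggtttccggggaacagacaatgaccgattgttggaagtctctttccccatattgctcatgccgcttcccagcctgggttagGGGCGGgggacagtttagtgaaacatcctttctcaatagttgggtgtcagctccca
Klk14, chr7:43690168-43690417, plus strand: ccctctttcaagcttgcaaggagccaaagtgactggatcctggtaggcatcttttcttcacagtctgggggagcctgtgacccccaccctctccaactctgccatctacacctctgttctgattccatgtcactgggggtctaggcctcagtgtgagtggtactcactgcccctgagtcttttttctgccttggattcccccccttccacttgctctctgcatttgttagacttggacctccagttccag

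RefSeq gave 11 starts for the 10 genes, with 2 for Klk6. The GC box was in 5 of these 11 windows, reaching from 250 bases before to 50 after each start, and those belonged to Klk6 (both starts), Klk7, Klk8 and Klk9. Among all 32851 windows of the same length, 35.7% held it. The window of Klk4, which was 2.79-fold lower in the fit, lacked it, and that of Klk9, 9.86-fold lower, held it. A link between the box and the levels was not tested. The box began 42 bases before the start of Klk8, 49 before that of Klk7, 56 and 166 before the first start of Klk6, and 10 bases after the start of Klk9, outside the stretch of the kind printed here. None of the 11 windows held TATAAA (the TATA box), TGANTCA (the AP-1 site), AACNNGTT (the Grainyhead-like site) or CACGTG (the E-box) on either strand, letters found in 13.6%, 7.81%, 4.20% and 7.15% of all windows, and no overlap between motifs arose. The Klk8 window held 23 CpG dinucleotides and that of Klk14 held 0, with 2 to 8 in the other 9 windows and a median of 7 over all windows. These matches describe letters and do not show that a factor binds.

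Klk7, a chymotrypsin-like protease that cuts corneodesmosin, had the highest mean of the set in both genotypes. MARS-seq counts 1 end per transcript, so levels of different genes are compared as UMIs without division by length. Klk7 had 289, 503 and 573 UMIs in Aire+/+ libraries 745, 750 and 753 and 94, 36 and 108 in Aire-/- libraries 746, 748 and 749. As CPM these were 94.8, 166 and 192 against 96.5, 19.4 and 66.0, and the fitted log2 fold change was -1.39 ± 0.40. (SE) The groups overlapped, because 746 stood just above 745. The spread within a genotype was wide, 2.03-fold from lowest to highest in Aire+/+ and 4.98-fold in Aire-/-. The fitted difference ran from -0.91 without library 748 to -1.84 without 746, and the edgeR call was lost without 750 or without 753.

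Klk5, a trypsin-like protease held to start the epidermal cascade by activating itself and Klk7, was much lower in the Aire-/- libraries. It had 109, 172 and 160 UMIs in Aire+/+ and 5, 2 and 8 in Aire-/-, or 48.8 ± 11.4 against 3.70 ± 2.28 CPM (SD, n = 3 each). The log2 fold change was -3.82 ± 0.37. (SE) Every Aire+/+ library lay far above every Aire-/- library.

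Klk14, another trypsin-like enzyme of the cascade, was likewise far lower. It had 107, 115 and 89 UMIs in Aire+/+ and 3, 4 and 2 in Aire-/-, or 34.3 ± 4.11 against 2.15 ± 0.93 CPM, a log2 fold change of -4.05 ± 0.33. (SE) The Aire+/+ libraries were close together, within 1.27-fold of each other, and the Aire-/- counts were at or near the limit that a count of 0 allows.

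Klk8, called neuropsin and known from both skin and hippocampus, had the smallest fitted difference of the set. Those of Klk7 (log2 fold change -1.39) and Klk4 (-1.48) were close, with overlapping standard errors. Without library 748, Klk7 had the smaller difference, at -0.91 against -0.96 for Klk8. The counts and levels of Klk8 follow. It had 126, 122 and 168 UMIs against 30, 24 and 30, or 46.0 ± 9.01 against 20.7 ± 9.17 CPM, a log2 fold change of -1.24 ± 0.27. (SE) The groups did not overlap, with the lowest Aire+/+ library at 40.3 CPM and the highest Aire-/- library at 30.8 CPM.

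Klk6, called neurosin and made in brain and in skin, resembled Klk7. It had 151, 332 and 352 UMIs in Aire+/+ and 54, 29 and 31 in Aire-/-, which is 49.5, 110 and 118 against 55.4, 15.6 and 19.0 CPM. Library 746 was above library 745, so the groups overlapped, and the log2 fold change was -1.76 ± 0.41. (SE) Without 746 it was -2.42.

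Klk4, the enamel matrix protease, had the narrowest range within each genotype among the genes with UMIs in every library. It had 226, 249 and 233 UMIs in Aire+/+ and 28, 50 and 47 in Aire-/-, or 74.1, 82.3 and 78.2 against 28.7, 26.9 and 28.7 CPM. The highest value in a genotype was 1.11 times the lowest in Aire+/+ and 1.07 times in Aire-/-. The chi-square of the counts per degree of freedom, which is near 1 where libraries differ by counting error alone, was 0.64 and 0.07 for Klk4. It was 1.48 and 0.54 for Klk14, so a value near 1 was not particular to Klk4, and it ranged up to 51.2 and 39.7 for Klk7.

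Klk13 and Klk12 are trypsin-like kallikreins of stratified epithelia. Klk13 had 60, 72 and 81 UMIs in Aire+/+ and 6, 1 and 1 in Aire-/-, a log2 fold change of -3.64 ± 0.52. (SE) Of its 8 Aire-/- UMIs, 6 came from library 746, and without that library the log2 fold change was -5.24. Klk12 had 31, 53 and 43 UMIs in Aire+/+, or 14.0 ± 3.69 CPM, and 0 in each Aire-/- library. With a floor of 3 UMIs for the whole Aire-/- group, Klk12 was at least 20.9-fold lower.

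Klk10 and Klk9 were the least abundant genes beside Klk12 in the mean over all 6 libraries. Klk10 had 22, 81 and 69 UMIs in Aire+/+ and 1, 1 and 0 in Aire-/-, or 42.4 times as much in Aire+/+ (exact 95% counting interval 11.6 to 353). As CPM, library 750 held 3.71 times the Klk10 level of library 745, the widest spread of the set within Aire+/+. Klk9 had 19, 37 and 29 UMIs against 2, 1 and 1, or 10.5 times as much (interval 3.95 to 39.4). Without library 746 the fitted log2 fold change of Klk9 moved from -3.30 to -3.92, and that of Klk10 moved from -5.24 to -4.65 without 749. With so few UMIs in Aire-/- the size of these differences was not resolved.

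**Figure D2:**
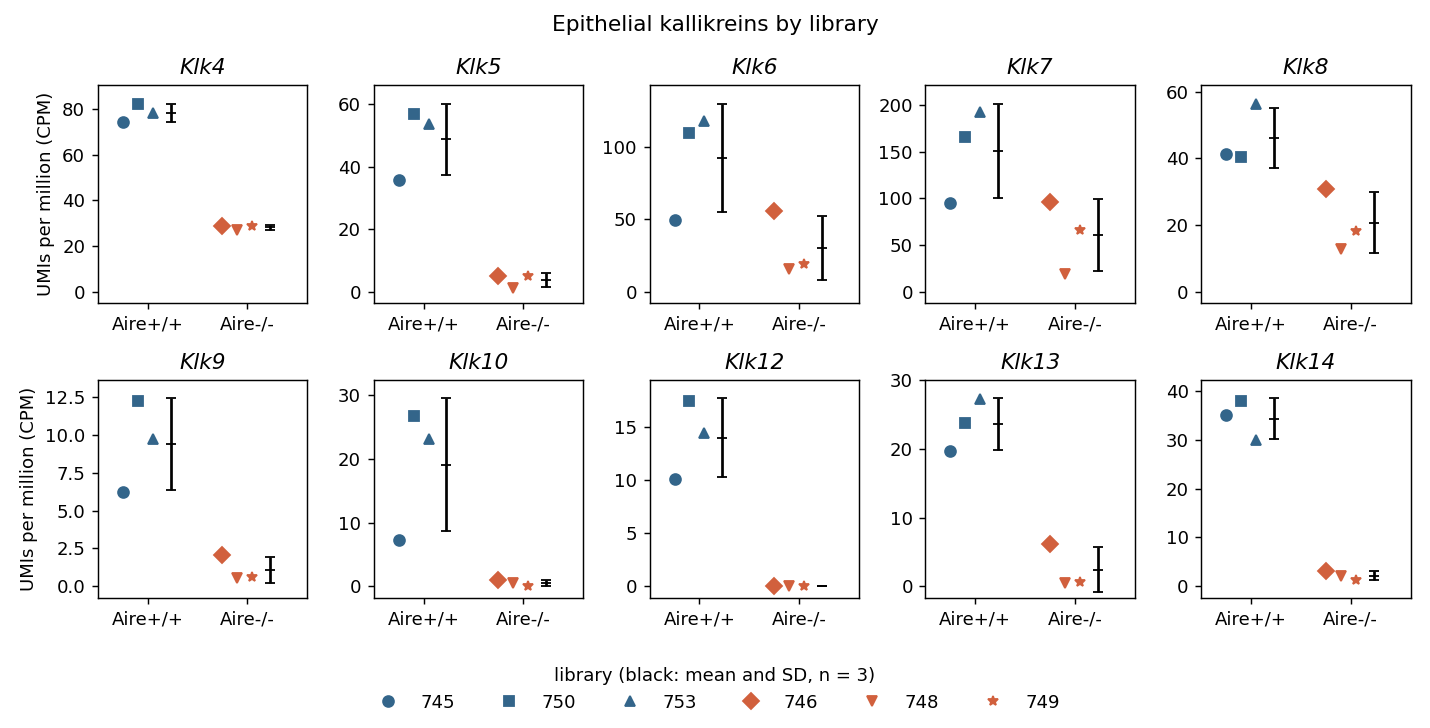
Counts-per-million values (CPM, scaled by TMM) of each kallikrein in each of the 6 libraries, with 1 panel and 1 linear axis per gene. Blue points are Aire+/+, orange points are Aire-/- and black bars give mean and SD (n = 3). Only for Klk6 and Klk7 does an Aire-/- library (746) stand above an Aire+/+ library (745), and all Klk12 points of Aire-/- are at 0.

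By mean CPM in Aire+/+ the order was Klk7 (151), Klk6 (92.5), Klk4 (78.2), Klk5 (48.8), Klk8 (46.0), Klk14 (34.3), Klk13 (23.6), Klk10 (19.1), Klk12 (14.0) and Klk9 (9.40). Neighbours in this order overlapped in their library values, except that the 3 libraries of Klk4 lay above those of Klk5, those of Klk8 above those of Klk14, and those of Klk14 above those of Klk13. In Aire-/- the order was Klk7 (60.6), Klk6 (30.0), Klk4 (28.1), Klk8 (20.7), Klk5 (3.70), Klk13 (2.44), Klk14 (2.15), Klk9 (1.07), Klk10 (0.52) and Klk12 (0). There the lowest library of Klk8, at 12.9 CPM, lay above the highest of Klk5, at 5.13 CPM, and the other neighbours overlapped down to Klk10, which like Klk12 had a library at 0.

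The libraries of a genotype were not interchangeable for this family. In Aire+/+, library 745 was the lowest for 8 of the 10 genes, all but Klk8 and Klk14. In Aire-/-, library 746 had the highest CPM for 9 of the 10 and library 748 the lowest for 7, with Klk12 at 0 in each. Some of these ranks rest on few UMIs or on library depth. Klk10 had 1 UMI in both 746 and 748, and Klk14 had 3 in 746 against 4 in 748. Klk9 and Klk13 had 1 UMI in both 748 and 749. Klk4 was at 28.75 CPM in 746 and 28.73 CPM in 749. Summed over the 10 genes, the level was 374, 574 and 603 CPM in libraries 745, 750 and 753 and 229, 79.6 and 139 CPM in 746, 748 and 749. Libraries 746 and 753 were also those with little Gapdh, and 746 had 190 UMIs of the collagen gene Col3a1 against 14 to 69 in the other 5 libraries. The part of either in the kallikrein levels was not tested. With 746 and 753 both left out, the fitted log2 fold changes ran from -1.40 for Klk8 to -5.66 for Klk10, leaving aside Klk12 with no UMI in Aire-/-, and that of Klk13 moved from -3.64 to -5.13.

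The make-up of the family's UMIs differed between the genotypes, as follows from the unequal differences given above. Klk4, Klk6, Klk7 and Klk8 were grouped by their smaller fitted differences in this same comparison, so their joint share had to be higher in Aire-/-. Klk4, Klk6, Klk7 and Klk8 together made up 69.5%, 69.5% and 73.8% of the family's UMIs in 745, 750 and 753. In 746, 748 and 749 they made up 92.4%, 93.9% and 94.7%. Klk5 alone went from between 8.90% and 9.91% to between 1.35% and 3.51%. In single libraries the exact (Clopper-Pearson) 95% interval of the Klk5 share was 7.63% to 10.3% in 753, the lowest of Aire+/+, and 1.53% to 6.80% in 749, the highest of Aire-/-. The Klk7 share was 25.4% to 31.9% in Aire+/+ and 24.3% to 47.4% in Aire-/-, so it overlapped. These shares restate the counts above on a common scale and rest on 148 to 228 UMIs in each Aire-/- library.

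**Figure D3:**
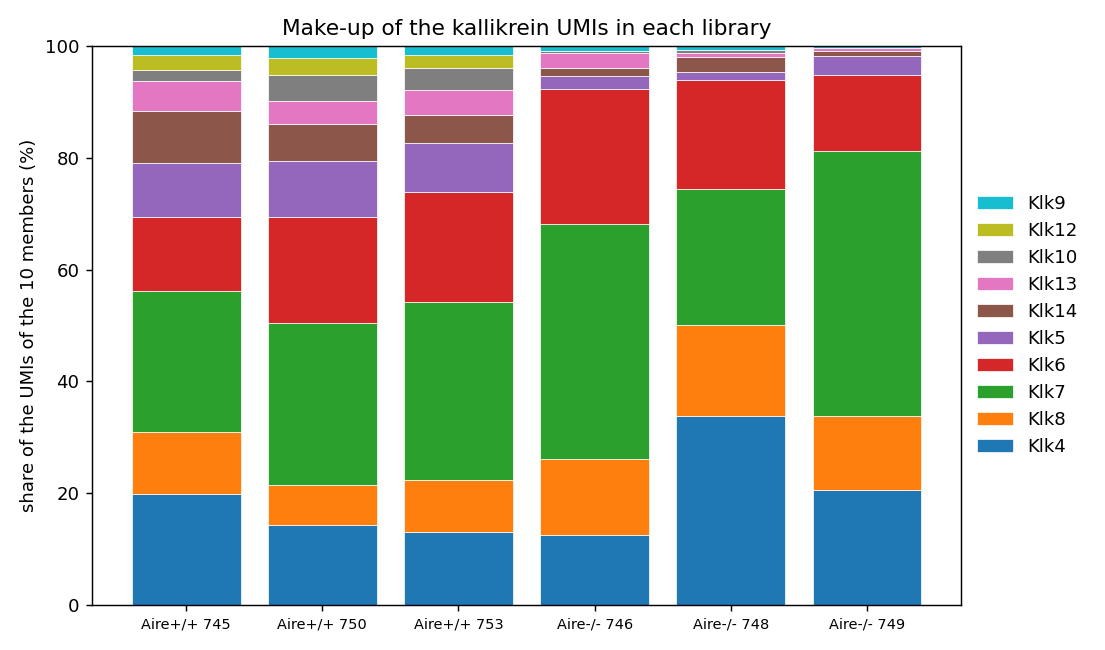
Share of the UMIs of the 10 kallikreins taken by each gene (%), as stacked bars for the 6 libraries. Klk4, Klk8, Klk7 and Klk6, the lower 4 blocks, fill 69.5% to 73.8% of the Aire+/+ bars and 92.4% to 94.7% of the Aire-/- bars. These genes were grouped by their smaller fitted differences in this comparison.

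The sorted cells carried the markers of their label in both genotypes. All 11 markers listed for mature medullary epithelium, among them H2-Aa, Cd80, Epcam and Fezf2, were present, and their summed level was 26546 to 31624 CPM in Aire+/+ and 47070 to 53703 CPM in Aire-/-. Of these, 0 fell and 5 rose by edgeR (Aire, H2-Aa, H2-Ab1, Cd80 and Cd86). Most of the sum was H2-Aa (mean 10772 against 18779 CPM) and H2-Ab1 (11921 against 23572 CPM). Cd40, Epcam, Tnfrsf11a, Fezf2, Krt5 and Krt14 were not called. Keratinocyte markers, which share their tissue with these kallikreins, were also present, all 11 of 11, at a summed 1356 to 1454 CPM in Aire+/+ and 457 to 949 CPM in Aire-/-. Of these, 5 fell (Ivl, Krt1, Krt10, Krtdap and Sbsn) and 1 rose by edgeR, beside 12.1% and 8.59% over all tested genes, and DESeq2 called the same genes except Ivl. Krt1, a keratin of the upper epidermis, fell by 3.05 on the log2 scale (edgeR adjusted p = 1.59e-06), while Lor, which encodes loricrin, stood at 55.1 ± 12.6 and 56.1 ± 42.4 CPM without a call. Grhl3, a transcription factor of the epidermal barrier, rose by 0.92 (edgeR adjusted p = 0.0116). Library 748, the lowest for most kallikreins, was also the lowest for the keratinocyte sum, and library 746 the highest of its genotype for both. In bulk libraries fewer keratinocyte-like cells and less RNA per cell cannot be told apart, and the part of this marker shift in the kallikrein levels was not tested. Markers of thymocytes (summed 105 to 153 CPM in Aire+/+ and 86.2 to 171 in Aire-/-), B cells (105 to 132 and 83.2 to 186) and dendritic cells (77.4 to 106 and 90.9 to 141, Xcr1 not in the table) had 0 called genes by edgeR or DESeq2 and 0 at an unadjusted p under 0.05, and all 5 cortical epithelial markers rose, their sum going from 391 to 620 CPM in Aire+/+ to 865 to 1026 CPM in Aire-/-. Of the stroma and endothelium markers, 4 of 5 were in the table (not Pdgfra), with sums of 21.1 to 30.8 CPM in Aire+/+ and 28.7 to 220 CPM in Aire-/-. Of the 2 tested only Col3a1 was called higher (edgeR adjusted p = 0.0157). Its groups overlapped, at 195, 37.1 and 8.56 CPM in 746, 748 and 749 against 5.71 to 14.1 CPM in Aire+/+.

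Among inhibitors of kallikreins, Spink5, Slpi and A2m fell. The gene lists from here on were drawn up with earlier results of these data known, so their counts and p-values are no independent evidence of a direction. Of 7 listed, 5 were in the table, 4 were tested, 3 fell and 0 rose, beside 12.1% of all tested genes called lower and 8.59% called higher. Spink5, whose product restrains Klk5, Klk7 and Klk14 in skin, had 96, 79 and 89 UMIs in Aire+/+ and 10, 20 and 23 in Aire-/-, a log2 fold change of -1.30 ± 0.23 (SE) (edgeR adjusted p = 0.0011). Slpi, a secreted inhibitor of leukocyte and epidermal proteases, had 389, 608 and 666 against 45, 68 and 11 UMIs (log2 fold change -2.69, edgeR adjusted p = 0.000357). The broad plasma inhibitor A2m fell by 1.12 on the log2 scale (edgeR adjusted p = 0.0288), and that call was lost without 745, 753 or 748 and with 746 and 753 both left out. Serpinb6a, an intracellular inhibitor, had 256 ± 12.5 and 241 ± 87.0 CPM and no call. Spink6 had 11 UMIs over the Aire+/+ group and 0 in Aire-/- and carries no test.

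Proteases that activate kallikreins, and the inhibitors of those proteases, had no gene called by edgeR among 7 tested of 10 listed, and none by DESeq2. At an unadjusted p under 0.05 there were 2, Prss8 and Spint2. St14, which encodes the membrane protease matriptase, was at 113 ± 11.6 CPM in Aire+/+ and 132 ± 17.0 CPM in Aire-/- (log2 fold change 0.21 ± 0.15, SE). Prss8, prostasin, a partner of matriptase in epithelia, had a log2 fold change of -0.66 (standard error 0.27, edgeR adjusted p = 0.109). Spint1 and Spint2, inhibitors of matriptase, stood at -0.0077 and 0.38 on that scale. Mmp20, which activates Klk4 in enamel, had 22 UMIs against 2, 5.43 times as much in Aire+/+ (counting interval 1.33 to 47.6), and carries no test.

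Among substrates, an antimicrobial peptide precursor and an enamel protein fell. Of 13 listed, 9 were in the table, 8 were tested, 2 fell and 0 rose (12.1% and 8.59% over all tested genes). Camp, the precursor of an antimicrobial peptide that Klk5 and Klk7 process in skin, had 273, 139 and 292 UMIs in Aire+/+ and 10, 4 and 4 in Aire-/- (log2 fold change -4.22, edgeR adjusted p = 2.42e-05). Amelx, the enamel matrix protein that Klk4 degrades, was at least 63.7-fold lower with 0 UMIs in Aire-/- (edgeR adjusted p = 4.76e-06). Amelx passed the count filter through Aire+/+ alone, so a call for it could only be lower. Ambn, another enamel protein, had 14, 10 and 8 UMIs against 0 and was below the count filter, and it was called lower by DESeq2 and by edgeR with min.count 3. The cascade cuts the products of the desmosomal genes Dsg1a and Dsg1b in shedding skin. Dsg1a was at 47.3 ± 5.15 against 43.4 ± 19.9 CPM and Dsg1b at 12.9 ± 0.75 against 14.6 ± 2.15 CPM, and neither was called. Dsc1, another desmosomal gene, had 15, 13 and 20 UMIs against 0, 6 and 6. Its log2 fold change of -0.99 was not called either (edgeR adjusted p = 0.231). Cdsn, corneodesmosin, had 31, 67 and 52 UMIs against 7, 3 and 20, a log2 fold change of -1.28 that missed the threshold (edgeR adjusted p = 0.0913). It was called lower by edgeR under scaling by library totals and without library 749. F2rl1, the receptor PAR2 that kallikreins can activate by cleavage, was at 53.9 ± 9.54 against 65.6 ± 9.71 CPM and was not called.

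Of the other enzymes of the cornified layer, neither of the 2 tested genes of 6 listed was called by edgeR (1, Asprv1, at an unadjusted p under 0.05) or by DESeq2. Asprv1, a retroviral-like protease that processes filaggrin, was at 360 ± 61.9 against 474 ± 82.1 CPM, and Ctsd, cathepsin D, at 444 ± 79.5 against 539 ± 141 CPM. Casp14, the caspase of cornification, had 8, 7 and 7 UMIs in Aire+/+ and 1, 0 and 2 in Aire-/- and carries no test.

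**Figure D4:**
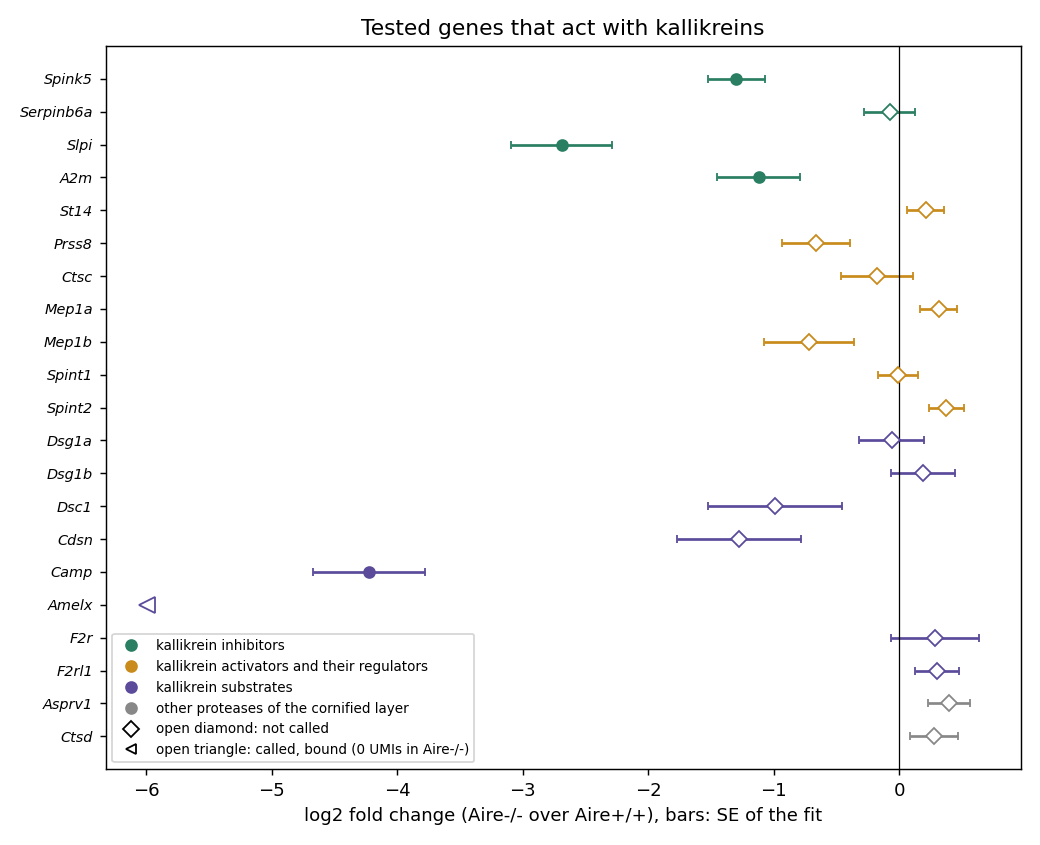
Fitted log2 fold change (Aire-/- over Aire+/+, bars are the standard error of the fit) of the tested inhibitors, activators, substrates and cornified-layer enzymes, coloured by list. Filled circles (Spink5, Slpi, A2m and Camp) and the open triangle, which places Amelx at its bound, are the genes called lower, and open diamonds were not called.

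The glandular kallikreins next to the set along the chromosome fell too. Among the 15 other tissue kallikreins in the table (Klk1, Klk11 and the Klk1b genes and pseudogene), 12 were tested, 11 fell and 0 rose (12.1% and 8.59% over all tested genes), and their median on the log2 scale was -4.80, moving to -3.84 once genes at 0 UMIs take their bounds. Klk1b1, Klk1b3, Klk1b4, Klk1b5, Klk1b8, Klk1b16, Klk1b21 and Klk1b22 had no Aire-/- library at the level of the count filter. They were tested through Aire+/+ alone, and a call for them could only be lower, so the count of falls was partly set by the filter. Klk1 fell by 1.24 (edgeR adjusted p = 0.000177), and Klk1b27 was not called (log2 fold change -0.61, edgeR adjusted p = 0.326). The Klk1b genes are known as close copies of each other, and how far their reads can be divided between copies was not measured here, so their single values are uncertain. Klk11, which lies inside the row of epithelial kallikreins but is no member of the set, had 7, 16 and 8 UMIs in Aire+/+ and 2 in each Aire-/- library, 2.55 times as much in Aire+/+ (counting interval 1.05 to 7.48), and was below the count filter. A difference between the glandular and the epithelial kallikreins was not tested.

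Beyond the kallikreins, Iglon5 and Vsig10l fell and Ceacam18 rose. Within 500 kb of the set, 18 genes that are not kallikreins were in the table, 10 were tested, 2 fell and 1 rose, numbers near the 12.1% and 8.59% of all tested genes called lower and higher, with a median log2 fold change of -0.19. On the Klk14 side the nearest genes in the table were Ctu1, a tRNA thiolation enzyme 12.1 kb away (log2 fold change 0.23), Siglece, a sialic acid receptor 30.3 kb away (0.27), and Ceacam18, a cell adhesion family member 41.1 kb away. Ctu1 and Siglece were not called, and Ceacam18 rose, with 48, 63 and 53 UMIs against 25, 54 and 66 in the shallower Aire-/- libraries, which is 18.1 ± 2.55 against 31.7 ± 7.69 CPM (log2 fold change of 0.82, edgeR adjusted p = 0.0184). That call was lost without 745, 753 or 749 and under scaling by library totals. Iglon5, a neuronal adhesion protein 200.3 kb away, fell by 3.48 (edgeR adjusted p = 4.39e-05), and Vsig10l, 218.4 kb away, by 1.60 (edgeR adjusted p = 0.0178), a call lost without 745, 748 or 749 and by DESeq2. Neither Iglon5 nor Vsig10l had an Aire-/- library at the level of the count filter, so a call for them could only be lower. On the Klk4 side, beyond the other kallikreins, 1700028J19Rik, 2410002F23Rik and Acp4 were the nearest, at 344 kb, 360.9 kb and 366.3 kb. The genes 1700028J19Rik and 2410002F23Rik were not called (log2 fold changes -0.67 and -0.41), and Acp4, an acid phosphatase of enamel formation, had 10, 6 and 11 UMIs against 0 and carries no test in the fit with the count filter.

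The genes closest to Klk4, Klk7 and Klk6 in their profile over the 6 libraries were listed for each, and Fbp1 was among the closest 3 for both Klk7 and Klk6. Likeness was the root mean square difference of log2 CPM after centring each gene on its own mean, over 6 libraries, for the 3 most abundant members. Closest to Klk4 were Ly6d, a surface protein of stratified epithelium, at 0.09, Tmem40 at 0.10 and Nkpd1 at 0.12, where the median over all tested genes was 0.78. Ly6d had 1678, 1794 and 1612 UMIs in Aire+/+ and 230, 379 and 317 in Aire-/-. Closest to Klk7 were Gfi1b (0.28), Fbp1 (0.30) and Adgrg5 (0.33), against a median of 1.12. Closest to Klk6 were Kpna7 (0.26), Fbp1 (0.35) and Tnn (0.35), against a median of 1.14. Apart from Ly6d, each of these close genes had only 1 to 11 UMIs in any Aire-/- library, so its likeness rests on few UMIs. Between kallikreins the smallest value was 0.38, for Klk4 with Klk8, followed by 0.42 for Klk12 with Klk14, genes near or at 0 UMIs in Aire-/-. Klk6 gave 0.45 with Klk7 and 0.46 with Klk9, so its likeness to Klk7 was not particular to that pair. The genotype and the library are shared by all genes in this measure, so likeness is a description of these 6 libraries.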

How the data were processed

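MARS-seq libraries of sorted mTEChi, 3 per genotype, were analysed from 1 table of the whole series. Raw UMI counts by gene symbol were deposited by the authors and are the only values tested. Beside them, per the file headers, stand normalized counts (a signal), regularized log2 values, and the log2 fold changes, p-values and adjusted p-values of a comparison the authors made, of which only their selection of genes is printed. Of tools and builds, bcl2fastq, cutadapt, STAR (2.4.2a), HTSeq, DESeq2 and mm10 are listed in the submitters' processing notes, without roles. For annotation, strand setting and UMI handling, the step is not given in the sources used here.

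All genes were fitted together with edgeR (4.0.16, in R 4.3.3): TMM scaling, the filterByExpr filter at min.count 10, a model of genotype alone, the quasi-likelihood test, and Benjamini-Hochberg adjustment over 11956 genes at a threshold of 0.05. The standard error (SE) is the absolute log2 fold change divided by the root of F. Levels are CPM with TMM factors, as mean ± SD. Counting intervals and limits cover counting error only. The last 300 nt of transcripts (GENCODE, GRCm38) were searched with blastn 2.17.0. Alternatives were 2 other scalings, DESeq2 1.42.0, 2 other filters, a prior count of 2 and leaving out libraries.

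The members and lists were chosen with earlier results of these data known. Named genes were the 10 members, Aire, genes of 5 lists, the nearest 3 genes on each side and called neighbours, and the 3 closest profiles to each of the 3 most abundant members. Gapdh, Siglecf, Nkg7 and single marker genes were named after their values were seen.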

Additional observations from a re-analysis of the deposited data

How the results depend on the processing

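All 10 kallikreins had a negative log2 fold change under each of 13 alternatives. The number called lower by edgeR stayed at 10 under both other scalings, both other filters and with 746 and 753 left out, which for genes chosen on this comparison is a description. That number was 9 to 10 when 1 library was left out and 8 by DESeq2, which did not call Klk6 and Klk7. A prior count of 2, which enters the fitted fold change and not the test, could change no call, and with it the fitted log2 fold changes of the genes near 0 UMIs shrank, to -2.52 for Klk9, -3.90 for Klk10 and -4.07 for Klk12. DESeq2 gave -6.77 for Klk12. Under scaling by totals the median log2 fold change over all genes was -0.22 in place of -0.02, Klk4 stood at -1.68, and edgeR called 567 genes higher and 1 activator, Prss8, lower. Over all genes, 618 to 1156 were called higher when 1 library was left out and 652 with 746 and 753 left out. Among the chromosome 7 neighbours, 6 were called with min.count 3 and 6 with no filter, because low genes (Siglecf, Nkg7 and Acp4) entered the test, and 1 to 5 when 1 library was left out. Among activators 0 to 2 were called when 1 library was left out. The other lists kept their counts within 1.5 times. No paired analysis was possible because the libraries of the genotypes share no number. The Aire-/- libraries, with 148 to 228 UMIs of the family each, limit how far the lowest genes can be resolved.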
